A study of Zea mays with 4 samples.

Results

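The tonoplast (TIP), NIP and SIP aquaporins of maize were followed in the ear internode (the segment of the stalk carrying the ear) on 4 Affymetrix maize arrays. The plants were of the inbred line F271, the less favourable parent of a population in which loci for lignin content and cell wall degradability had been mapped. They grew, without treatment, in a field that was irrigated in a dry, hot summer. Tassel emergence and early silking each had 2 arrays of total RNA, amplified and labelled with biotin. The members were taken by name alone: a gene symbol or synonym that begins with TIP or NIP and a number, or sbip1b or sbip2a, small basic intrinsic proteins of the SIP class. This gave 17 genes, 10 TIP, 5 NIP and 2 SIP, on 19 probe sets, out of 1108 genes that the platform annotation names.

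Aquaporins are membrane channels that let water, and in some classes small neutral solutes, pass along their gradients. TIP proteins sit in the tonoplast, the membrane of the vacuole, whose filling with water drives the expansion of plant cells. NIP proteins, named for nodulin 26 of legume root nodules, include channels for silicic acid and boric acid, and grasses load silicon into their stems and leaves through them. SIP proteins are small basic channels that in Arabidopsis sit in the endoplasmic reticulum. The probe and protein sequences of the members were not used here, so cross-hybridisation between near-identical copies could not be checked.

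Values are log2 probe set summaries, and a value of 4 was taken as the floor below which a probe set gives only a bound. A probe set was tested when it lay above 4 on at least 2 of the 4 arrays, which kept 10782 of 17621. Of the 17 genes, 10 were measured in this sense on 11 probe sets, namely TIP1-1, TIP2-1, TIP4-1, TIP4-4, NIP2-1, NIP2-2, NIP2-3, NIP3-1, sbip1b and sbip2a. The other 7 genes stayed below the floor on all 4 arrays, with values between 1.79 and 2.74. The labels do not say whether different plants gave the 2 arrays of a stage, and the p-values therefore cover only the spread among these 4 samples, part of which may be technical. In a whole organ, fewer cells of a type and less RNA per cell cannot be told apart.

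The comparison of early silking with tassel emergence asked how these channels differ between a stage before and a stage at flowering. TIP1-1 and TIP2-1 were lower at early silking, with log2 changes of -1.99 and -1.11, and NIP3-1 was higher, with 0.93. In these 3 genes the arrays of the stages did not overlap. The silicon channel genes NIP2-1, NIP2-2 and NIP2-3, together with TIP4-1 and TIP4-4, differed more between the 2 arrays of a stage than between the stage means, NIP2-1 at early silking excepted. No measured member passed an adjusted p of 0.05 in limma, where 0% of the 10782 tested probe sets passed. At an unadjusted p of 0.05, 2 of the 10 were lower, where 12.1% of tested probe sets were lower, and 1 was higher, where 12.7% were higher, or 24.8% in either direction. Stages without overlap were found in 2 lower members and 1 higher member, against 24.9% and 34.9% of tested probe sets, so the 3 of 10 lie below the 59.7% in either direction. Of the 10, 5 had a change below 0, as did 42.6% of tested probe sets. The median change of the measured members was -0.01, beside 0.10 over all tested probe sets.

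**Figure D1:**
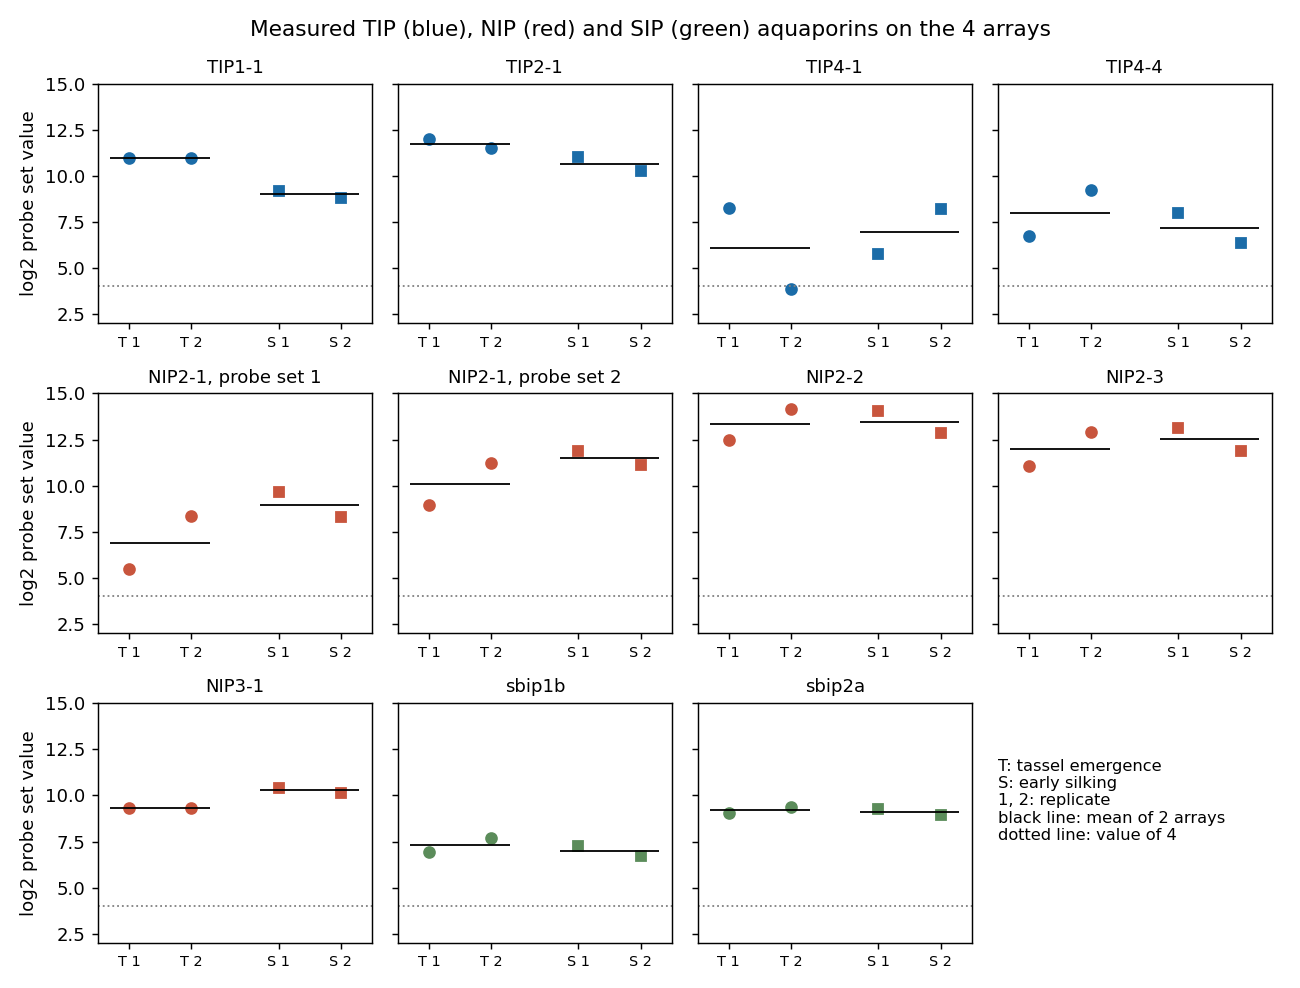
Log2 probe set values (vertical axes) of the 11 tested probe sets on each of the 4 arrays, with circles for tassel emergence, squares for early silking, a black line for the mean of the 2 arrays and a dotted line at the value of 4. TIP1-1 has both tassel emergence arrays at 10.99 and the silking arrays at 9.17 and 8.82, while the NIP2 genes and TIP4-4 spread within each stage.

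TIP1-1, a vacuolar water channel known in maize from expanding and vascular tissue, read 10.99 and 10.99 on the tassel emergence arrays, against 9.17 and 8.82 on the silking arrays. Both silking arrays were lower than both tassel emergence arrays. The means were 10.99 ± 0.0028 (SD, n = 2) and 9.00 ± 0.25, a 3.98-fold lower signal, with a 95% interval of the log2 change from -2.58 to -1.41. Its limma adjusted p was 0.0864 over all tested probe sets, and 0.0465 when the adjustment ran over the 800 tested named genes. The 2 tassel emergence arrays differed by 0.004, which is small beside a median difference of 0.33 between those arrays over all tested probe sets. With any 1 array left out the change lay between -2.17 and -1.82. The 4 markers of a thickening stem wall, given further on, were lower at silking as well, and their part in the TIP1-1 and TIP2-1 values was not tested.

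TIP2-1, of a TIP class that in Arabidopsis also passes ammonia, read 11.97 and 11.52 before flowering and 11.02 and 10.25 once silks appeared. The stages did not overlap, though the gap between the lower tassel emergence array and the higher silking array was smaller than the spread at silking. The change was -1.11 with an SE of 0.36 and a 95% interval from -2.12 to -0.10 (limma, adjusted p = 0.181). Without early silking replicate 2 it was -0.72.

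TIP4-1, another tonoplast channel, read 8.27 and 3.88 on the tassel emergence arrays, against 5.73 and 8.20 on the silking arrays. 1 tassel emergence array lay below the floor of 4 while the other gave the highest value of the 4, so the stages overlapped widely. Its change of 0.89 had a 95% interval from -4.13 to 5.91, and it turned to -1.31 without tassel emergence replicate 2 and to -0.35 without early silking replicate 2, while it was 3.08 without tassel emergence replicate 1 and 2.13 without early silking replicate 1.

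TIP4-4, of the same TIP class, read 6.72 and 9.23 on the tassel emergence arrays, against 7.99 and 6.35 on the silking arrays. It was high on the arrays on which TIP4-1 was low, and low where TIP4-1 was high. Its change of -0.80 had a 95% interval from -3.82 to 2.21, and it was 0.45 without tassel emergence replicate 2 and 0.01 without early silking replicate 2, while it was -2.06 without tassel emergence replicate 1 and -1.62 without early silking replicate 1. In both TIP4 genes the difference between the 2 arrays of a stage, 4.39 and 2.47 for TIP4-1 and 2.52 and 1.64 for TIP4-4, was larger than the stage change.

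The other 6 tonoplast genes were below the floor throughout. TIP1-2 had values between 2.07 and 2.13 and TIP2-2 between 1.79 and 1.82. TIP2-3 was at 2.20 to 2.23. TIP3-1 and TIP3-2, of the class found in seed storage vacuoles, were at 2.07 to 2.17 and at 2.15 to 2.23. TIP5-1, of a class known from pollen in Arabidopsis, was at 1.86 to 2.03. TIP2-3 and TIP5-1 are next to each other in the gene order of RefSeq for the B73 genome, Zm-B73-REFERENCE-NAM-5.0. A probe set at this level shows only that no signal above the floor was measured with these probes.

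NIP2-1, which carries the synonym Lsi1, the silicic acid uptake channel first described in rice roots, was read by 3 probe sets. The brightest read 8.96 and 11.25 on the tassel emergence arrays, against 11.90 and 11.13 on the silking arrays. The other tested one had 5.49 and 8.33 and then 9.63 and 8.32, and the third was below the floor at 2.06 to 2.11. Both tested probe sets were lowest on tassel emergence replicate 1 and highest on early silking replicate 1. Their changes were 1.41 with a 95% interval from -1.04 to 3.86 and 2.06 with one from -1.08 to 5.21 (limma, adjusted p = 0.378 and adjusted p = 0.326). The change of the brightest was 0.26 without tassel emergence replicate 1 and 2.56 without tassel emergence replicate 2.

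NIP2-2, a NIP of the same silicon channel class, read 12.48 and 14.17 on the tassel emergence arrays, against 14.03 and 12.88 on the silking arrays. Its brightest array was of 1 stage and its second brightest of the other. The change of 0.13 had a 95% interval from -1.94 to 2.20. That interval holds falls and rises far larger than 0.13, so no direction can be read from these arrays.

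NIP2-3, which carries the synonym Lsi6, a channel that in rice moves silicon out of the xylem, read 11.08 and 12.89 on the tassel emergence arrays, against 13.12 and 11.89 on the silking arrays. It was high and low on the same arrays as NIP2-2. The change was 0.52 with a 95% interval from -1.70 to 2.74 (limma, adjusted p = 0.712).

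NIP3-1, a boron channel whose loss in the tassel-less1 mutant of maize stunts the tassel and ear, read 9.34 and 9.34 on the tassel emergence arrays, against 10.42 and 10.13 on the silking arrays. Both silking arrays were higher, and the tassel emergence arrays differed by 0.00092. The change of 0.93 with an SE of 0.20, a 1.91-fold higher signal, had a 95% interval from 0.38 to 1.49 (limma, adjusted p = 0.121). It was 0.79 to 1.08 with any 1 array left out. The NIP3-1 probe set and both tested NIP2-1 probe sets are of a type that reads several transcripts of 1 gene. NIP1-1, the remaining NIP, was below the floor, at 2.32 to 2.74.

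For sbip1b the tassel emergence arrays read 6.92 and 7.67 and the silking arrays 7.25 and 6.69. Its stages overlapped, and the change of -0.32 had a 95% interval from -1.37 to 0.72. For sbip2a the tassel emergence arrays read 9.06 and 9.39 and the silking arrays 9.24 and 8.92. Its stages overlapped as well, with a change of -0.15 and a 95% interval from -0.81 to 0.51. Another SIP gene, sbip1a, which is outside the rule, had 9.48 and 9.36 and then 9.91 and 9.96, a change of 0.52 with an SE of 0.18 and no overlap (limma, adjusted p = 0.191).

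**Figure D2:**
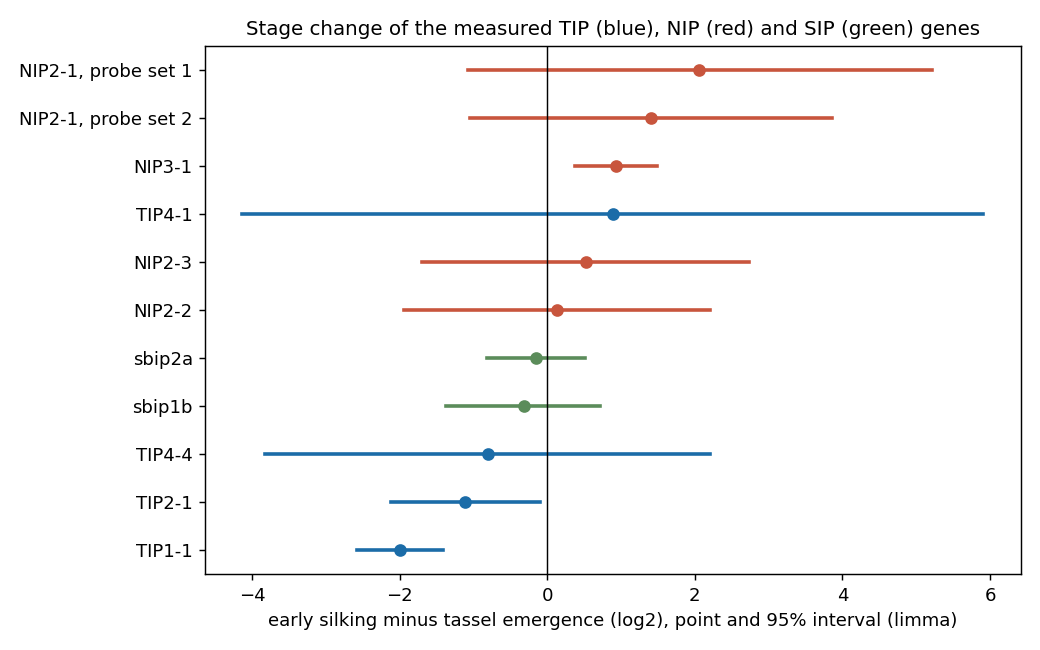
Early silking minus tassel emergence (horizontal axis, log2) for the 11 tested probe sets, with the limma 95% interval as a bar, TIP in blue, NIP in red and SIP in green. The intervals of TIP1-1, TIP2-1 and NIP3-1 leave out 0, and that of TIP4-1 runs from -4.13 to 5.91.

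Probe sets differ in how strongly they bind, so their levels rank signal and not transcript number, and no gene's level was tested against another's. By the percentile of its signal among the 17621 probe sets of each array, NIP2-2 was between the 97.7th and the 99.8th and NIP2-3 between the 91.9th and the 98.8th. TIP2-1 lay between the 85.8th and the 96.0th and TIP1-1 between the 71.6th and the 91.3rd. NIP3-1 had percentiles of 76.8 to 87.2, sbip2a of 72.6 to 77.4 and sbip1b of 51.8 to 59.3. The brightest NIP2-1 probe set ran from 72.7 to 95.6, TIP4-4 from 50 to 75.7 and TIP4-1 from 39.2 to 65.2.

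Members were also compared within arrays, as the log2 difference between 2 members on the same array, which is free of the scale of that array. There are 45 pairs of measured members, and in 22 of them the stages did not overlap. The share over pairs of other genes was not computed, so this count is not a result about the members. The smallest p that an exact permutation of 2 against 2 arrays can give is 0.33, and the smallest adjusted over the pairs was 0.68, so these differences are descriptions. NIP3-1 minus TIP1-1 changed by 2.93 between the stages, with array values of -1.47, -1.46, 1.44 and 1.49 around their mean. The 2 arrays of a stage thus differed by at most 0.05. The largest change of the 45 pairs was 3.4, in NIP2-1 minus TIP1-1. Its array values of -2.85, -0.55, 1.91 and 1.49 stood farther apart within each stage. No rule fixed beforehand which pairs are given here. TIP1-1 minus TIP2-1 changed by -0.89, with 0.22 and 0.66 before flowering and then -0.66 and -0.23, so on both silking arrays TIP1-1 was lower relative to TIP2-1. Of sbip2a minus TIP1-1 the change was 1.84, without overlap. For TIP1-1 minus TIP4-4 and TIP1-1 minus TIP4-1 the stages overlapped. NIP2-2 minus NIP2-3 changed by -0.39, and sbip1b minus sbip2a by -0.17.

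In the TIP4 and NIP2 genes the 2 arrays of a stage stood far apart. They were more than 1 apart at tassel emergence in 5 of the 10 measured members, where 14.2% of tested probe sets were, and at early silking in 4 of these 5, NIP2-1 being the exception at 0.77, where 7.61% were. NIP2-1, NIP2-2, NIP2-3, TIP4-4, sbip1b and sbip2a were higher on tassel emergence replicate 2 than on replicate 1, and higher on early silking replicate 1 than on replicate 2. NIP3-1 followed by a margin of 0.00092 at tassel emergence, which makes 7 of the 10, where 37.7% of tested probe sets had both signs. TIP4-1 had the opposite signs at both stages, and TIP1-1 and TIP2-1 were higher on replicate 1 at both, TIP1-1 by 0.004 at tassel emergence. Of the plasma membrane aquaporins, which were not chosen by this rule, 10 of 10 had the same signs as the NIP2 genes. Their gaps ran from 0.32 to 3.34 at tassel emergence and from 0.07 to 1.85 at early silking, both widest in PIP2-6. Wide gaps were thus not particular to the NIP2 and TIP4 genes.

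**Figure D3:**
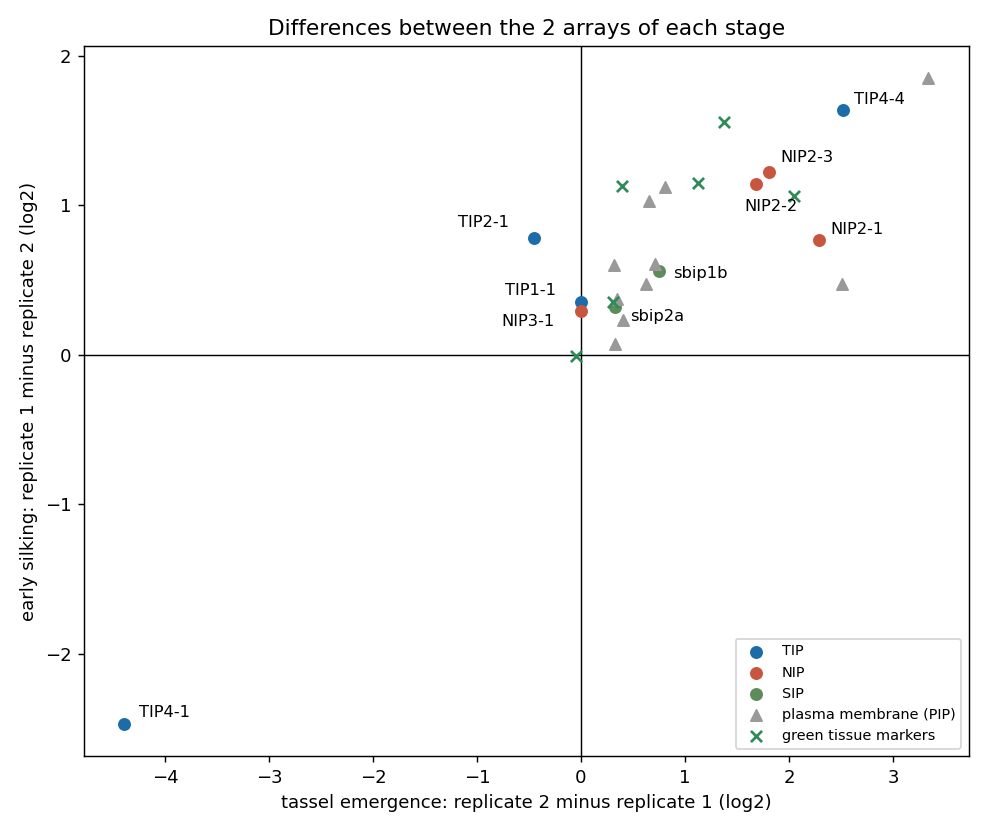
Difference between the 2 arrays of tassel emergence (horizontal axis, replicate 2 minus 1, log2) and of early silking (vertical axis, replicate 1 minus 2, log2) for the measured members, the plasma membrane aquaporins and the markers of green tissue. NIP2-1, NIP2-2, NIP2-3 and TIP4-4 lie far to the upper right and TIP4-1 far to the lower left. The plasma membrane aquaporin PIP2-6, at 3.34 and 1.85, lies farther to the upper right than the NIP2 genes and TIP4-4.

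Markers of green leaf tissue moved with that difference. All 6 were above the floor, and their summed signal was 14.09 and 14.81 on the log2 scale at tassel emergence and 15.06 and 14.38 at early silking. 5 of the 6 had the signs of the NIP2 genes, where 37.7% of tested probe sets had them. The widest gap of the 6 at tassel emergence was in lhcb6, a light-harvesting protein of photosystem II. It was at 9.24 and 11.29 and then at 11.42 and 10.36. PPDK, of the C4 cycle, was the exception in sign, at 11.49 and 11.44 and then at 11.87 and 11.88. All 6 had a higher mean at silking, 2 of them without overlap, where 34.9% of tested probe sets were higher without overlap. The mean 3' minus 5' gap of 5 control transcripts, which depends on RNA integrity and labelling, was 4.57 and 2.88 at tassel emergence and 1.84 and 2.37 at early silking. The array with the larger gap was thus the one with lower NIP2 values in each stage. Both tassel emergence arrays also had a larger gap than both silking arrays. A fit with the gap therefore cannot fully separate it from stage, for any member. The part of green tissue in the NIP2 and TIP4 values was not tested, and the gap was only tried as a covariate. With the gap as a covariate, which leaves 1 residual degree of freedom, the changes of NIP2-1, NIP2-2 and NIP2-3 turned to -0.81, -1.66 and -1.40. TIP4-1 moved from 0.89 to 5.41, TIP4-4 from -0.80 to -3.45, sbip1b from -0.32 to -1.14 and sbip2a from -0.15 to -0.53. TIP1-1 was at -2.09, TIP2-1 at -0.93 and NIP3-1 at 0.85. Of these 3, TIP2-1 and NIP3-1 no longer had an unadjusted p under 0.05 (limma, adjusted p = 0.411 and adjusted p = 0.229), and no member passed after adjustment. The RNA amounts of 290 and 440 ng and of 340 and 400 ng do not follow the same order. The array with less RNA had the lower NIP2 values at tassel emergence and the higher ones at early silking. Whether RNA amount had a part in the NIP2 and TIP4 values was not tested.

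The markers of a thickening stem wall were all 4 above the floor and lower at silking, with a summed signal of 14.66 and 15.07 and then of 12.77 and 12.41. Between the 2 arrays of each stage all 4 had the signs of the NIP2 genes too, where 37.7% of tested probe sets had them. Those signs were thus not particular to green tissue markers. The 3 pollen and anther markers were all below the floor. Of 7 genes for endosperm storage proteins, 6 were below it, and the seventh, gz27, was at 5.99 to 6.97. Array medians over the 17621 probe sets ran from 6.35 to 6.51. The arrays of a stage correlated at 0.933 at tassel emergence and at 0.967 at early silking across the tested probe sets, and those of different stages at 0.883 to 0.914.

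Other genes of water and ion transport were taken from a list of names. Of 10 plasma membrane aquaporins, 8 were lower and 2 higher at silking, where 42.6% of tested probe sets had a change below 0. Their median change was -0.22, and 1 was lower at an unadjusted p of 0.05, where 12.1% of tested probe sets were. PIP2-4 read 11.04 and 11.69, then 10.34 and 9.31. PIP2-1 read 11.74 and 12.46, then 11.46 and 10.85. These were the 2 of the 10 whose stages did not overlap, both lower, where 24.9% of tested probe sets were lower without overlap. Their changes were -1.54 and -0.94 (limma, adjusted p = 0.166 and adjusted p = 0.225). The largest changes upward were 0.69 in PIP2-5 and 0.13 in PIP1-1, both with overlap. The count of 8 lower was 4 without tassel emergence replicate 2, and also 4 without early silking replicate 2.

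Of the proton pumps that energise the tonoplast, 2 were measured. vpp1, a pyrophosphatase pump, had 12.43 and 12.88 and then 12.54 and 12.31, with overlap. vpp3 had 12.05 and 11.77 and then 12.29 and 12.35, a change of 0.41 without overlap (limma, adjusted p = 0.288). The vacuolar invertase ivr2, which cleaves sucrose inside the vacuole, had 11.19 and 11.07 and then 4.06 and 1.78, so 1 silking array was below the floor. Of 7 potassium channels and antiporters, 1 was measured, ZMK2, at 9.59 and 9.62 and then 9.75 and 9.73, a change of 0.14 without overlap and with a 95% interval from -0.34 to 0.61. The silicon and boron carrier names matched no gene beyond NIP2-1 and NIP2-3.

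The genes nearest in pattern were found among the other 799 tested named genes, by the root mean square distance of log2 values over the 4 arrays after each gene was centred on its own mean. Where an array read below the floor of 4, as for TIP4-1, PK1, cl146_1, LOC541865, CYP88A1, PR-1 and hsp101, the distance and the order it gives rest partly on values that are only bounds. Nearest to TIP1-1 were cl146_1 at 0.10, near the floor with values from 4.24 to 1.84, and CesA12, a cellulose synthase of the secondary wall, at 0.12. CesA12 read 13.11 and 13.41, then 11.40 and 11.19, and is 1 of the stem wall markers. LOC541865, with both silking arrays below the floor, followed at 0.12. Nearest to TIP2-1 were HK1 at 0.11, CYP88A1, an enzyme of gibberellin synthesis, at 0.12, and DBP1a at 0.18.

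Nearest to NIP2-1 were sig2B, a sigma factor of plastid transcription, at 0.13, and PR-1 and IDP3803 at 0.17. Those of NIP2-2 were abcf1 at 0.12, lls1, the lethal leaf spot1 gene, at 0.15, and gln1, a glutamine synthetase, at 0.17. NIP2-3 had ATP-D at 0.06, GAPN at 0.11 and lhcb6 at 0.11. For NIP3-1 they were orc1, of the origin recognition complex, and gl8, a reductase of surface wax synthesis, both at 0.08, and mbd111, a methyl-CpG-binding protein, at 0.09. TIP4-4 was nearest to AS, an asparagine synthetase, at 0.20, and then to hsp101, a heat shock chaperone, and PIP2-6, both at 0.34. For TIP4-1, itself below the floor on 1 array, the distances were 0.81 for PK1, which was below it on 2 arrays, 0.83 for thi1, of thiamine synthesis, and 0.89 for LOC100037827. The SIP genes vary little, so many genes are near them: der2 and PIS at 0.03 and pdh2 at 0.05 for sbip1b, and PIP1-2 and fad7, a fatty acid desaturase, at 0.04 and LOC541810 at 0.05 for sbip2a.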

How the data were processed

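Total RNA of the ear internode was measured on 4 arrays. The authors deposited log2 summaries per probe set, for which the submitters' processing notes name GCRMA, a method that models background from probe sequence. Its version is not given in the sources used here. That the scale is log2 follows from the range, 1.36 to 15.24 without controls. Of 17734 probe sets, 113 controls took no part. Genes were named through the platform's gene identifiers and RefSeq synonyms. All 17 member genes matched, none by its platform symbol. Where a gene had several tested probe sets, that with the highest mean stood for it.

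The stage difference was tested by limma 3.58.1 under R 4.3.3 (lmFit, eBayes, 2-sided, Benjamini-Hochberg over all tested probe sets), without a replicate term, with 1.95 prior degrees of freedom. Having 2 arrays a stage limits the precision. The fit was tested on simulated data with independent noise on each array. Differences between replicates or in the control gap were not part of that simulation, so it does not bear on them. Alternatives were a replicate block, other filters and normalizations, an intensity trend, a common variance, left-out arrays, the control gap as a covariate and adjustment over named genes. All members, and from each list of water and ion transport genes the 2 largest changes in each direction, were named, with the 3 nearest genes per measured member. PPDK, gz27 and sbip1a were named after their values were seen. The members and lists were chosen with earlier results of these data known.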

Additional observations from a re-analysis of the deposited data

How the results depend on the processing

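TIP1-1, TIP2-1 and NIP3-1 kept their direction under every alternative run, left-out arrays giving changes of -2.17 to -1.82, -1.50 to -0.72 and 0.79 to 1.08. No member passed over all tested probe sets with the settings of the report. With 1 common variance 1045 probe sets passed, with 1 member among them (TIP1-1, limma adjusted p = 0.00192). With the adjustment over the 800 tested named genes 28 genes passed, with 1 member among them (TIP1-1). Of the 800, 200 had an unadjusted p under 0.05. The limma adjusted p of TIP1-1 ran from 0.00192 to 0.438 over its alternatives. With the replicate number as a block (replicate block) no member passed and 1594 probe sets had an unadjusted p under 0.05, against 2679. The labels do not say whether the replicate numbers pair the samples. The differences between replicates 1 and 2 at the 2 stages correlated at -0.42 across tested probe sets, which does not settle it. Crossed pairs as a block, added after seeing the data, gave 357 probe sets and 1 member.

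With the gap as a covariate 6 members had an unadjusted p under 0.05, and 5 with the gap taken without actin, added after seeing the data, against 3. Of the original 3 only TIP1-1 was among them under either gap: TIP2-1 (limma adjusted p = 0.411 and adjusted p = 0.397) and NIP3-1 (adjusted p = 0.229 and adjusted p = 0.216) were lost, while NIP2-2, sbip1b, TIP4-1 and TIP4-4 were gained under both and NIP2-3 with actin. The changes of NIP2-1, NIP2-2 and NIP2-3 were then -0.81, -1.66 and -1.40, and -0.69, -1.55 and -1.29 without actin. The cause was not tested. Leaving out 1 array gave 1216 to 2640 probe sets under an unadjusted p of 0.05, 28 to 39 member pairs with separate stages against 22, since fewer arrays overlap less, and 4 to 9 lower plasma membrane aquaporins, whose median ran from -0.49 to 0.06. It gave NIP2-1 changes of 0.26 to 2.56 and turned NIP2-2 (-0.71 to 0.97), NIP2-3 (-0.38 to 1.43), sbip1b (-0.70 to 0.05), sbip2a (-0.31 to 0.02), TIP4-1 (-1.31 to 3.08) and TIP4-4 (-2.06 to 0.45).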
